A study of Homo sapiens with 6 samples.

Results

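The NF-kB transcription factor subunits and the I-kappa-B proteins that hold or redirect them were followed here as 10 genes, NFKB1, NFKB2, REL, RELA, RELB, NFKBIA, NFKBIB, NFKBIE, NFKBIZ and BCL3. Members were taken by name, as every probe set (a group of short probes for 1 transcript on the array) whose only gene symbol in the platform annotation was 1 of the 10. That gave 21 of 49293 non-control probe sets, and 10 of the 18132 genes with a probe set of their own. ARPE19, an established cell line of human retinal pigment epithelium, had received either a GFP plasmid (the control) or a GFP plasmid that also carries satellite alpha, a repeat found at human centromeres, at 2.5 ug of plasmid per well in both groups. There were 3 arrays with GFP and 3 with GFP-satellite alpha (SATalpha), each from a transfected well of a 6-well plate, so both groups shared the cell line, GFP and the transfection. The labels give neither the time of harvest nor the share of cells that took up plasmid, and do not say whether the wells were separate cultures. P-values therefore reflect well-to-well spread alone, which may be technical.

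NF-kB proteins act as dimers. RELA, REL and RELB carry a domain that activates transcription, whereas NFKB1 and NFKB2 encode precursors that are processed into subunits without one. In resting cells the I-kappa-B proteins NFKBIA, NFKBIB and NFKBIE hold the dimers in the cytoplasm until I-kappa-B kinase (IKK) marks them for degradation, which is the canonical route; RELB with processed NFKB2 belongs to the slower noncanonical route. BCL3 and NFKBIZ are atypical I-kappa-B proteins that work in the nucleus, where they bind subunits at DNA and alter which targets are read. Several of these genes are themselves known targets of NF-kB, so the family is widely described as a feedback circuit, and in retinal pigment epithelium it is known for driving cytokine and chemokine genes.

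NF-kB binds DNA at kappa-B sites, and the promoters of the members are shown because the family is known to regulate its own genes. RefSeq promoter windows (GRCh38.p14, from 250 bases before a transcription start to 50 from it) were matched by symbol for 8 of the 10 members, in 14 windows. RELB and NFKBIE were not matched. The windows were searched on both strands for the 10-base kappa-B consensus, with overlapping matches merged. A match was found in 9 of the 14 member windows and in 7 of the 8 member genes, against 11.3% of all 35116 windows and 13.3% of all 27305 genes in the table. RELA was the member without one. A match describes these letters and is not evidence that a protein binds there. The 250 bases before the first start are given for NFKB1 (chr4:102501109-102501358, plus strand), NFKBIZ (chr3:101827740-101827989, plus strand) and NFKBIA (chr14:35404750-35404999, minus strand), with the match in capitals. These 3 genes fell, rose and did not pass the test, respectively, as described further on.
NFKB1: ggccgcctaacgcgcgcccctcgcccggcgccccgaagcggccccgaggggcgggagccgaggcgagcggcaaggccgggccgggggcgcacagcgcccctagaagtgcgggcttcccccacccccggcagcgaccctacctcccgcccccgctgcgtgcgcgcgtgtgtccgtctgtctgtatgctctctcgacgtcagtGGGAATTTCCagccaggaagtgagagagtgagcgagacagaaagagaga
NFKBIZ: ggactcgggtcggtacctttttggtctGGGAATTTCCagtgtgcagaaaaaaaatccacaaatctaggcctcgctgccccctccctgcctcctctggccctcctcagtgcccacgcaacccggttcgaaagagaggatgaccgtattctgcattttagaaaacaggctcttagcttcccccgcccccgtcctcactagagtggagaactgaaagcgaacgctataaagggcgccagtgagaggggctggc
NFKBIA: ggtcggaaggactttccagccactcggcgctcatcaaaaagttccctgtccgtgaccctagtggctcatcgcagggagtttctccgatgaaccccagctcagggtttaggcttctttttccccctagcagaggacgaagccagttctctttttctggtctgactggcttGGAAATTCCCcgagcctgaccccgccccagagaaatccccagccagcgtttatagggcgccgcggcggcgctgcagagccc
NFKB1 and NFKBIZ held the same 10 letters, GGGAATTTCC, at 49 to 40 bases before the start of NFKB1 and 223 to 214 bases before that of NFKBIZ. The NFKBIA match, GGAAATTCCC at 81 to 72 bases before its start, has the same 10 letters when read on the other strand.

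Matches in other members are shown with their flanks, again in capitals, to show how alike the letters are. Of these members NFKB2 passed the test, NFKBIB and BCL3 did not pass it, and REL was not tested. Of the 4 NFKB2 matches, the 2 shown precede its second annotated start (chr10:102394471-102394481 and chr10:102394500-102394509), and the other two lie upstream of the next. That of REL precedes its only annotated start in the table (chr2:60881527-60881537). Of the 2 NFKBIB matches, the one shown precedes its second start (chr19:38899941-38899951), and the other lies 39 to 48 bases from that start. The BCL3 match lies just after the start (chr19:44748710-44748719).
NFKB2, 107 to 97 bases before: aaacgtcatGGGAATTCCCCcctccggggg
NFKB2, 78 to 69 bases before: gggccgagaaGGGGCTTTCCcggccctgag
REL, 47 to 37 bases before: gtcagccgcGGGAAATTCCCctcccgccag
NFKBIB, 28 to 18 bases before: ggcgtggtgGGGAATTTCCCgcagggcgga
BCL3, bases 3 to 12 from the start: ccggctgcagGGGAAGTCCCggcgcccggc
The NFKBIB match shown contains the 10 letters of NFKB1 and NFKBIZ. Read on the other strand, the REL match has the same letters as this NFKBIB match.

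**Figure D1:**
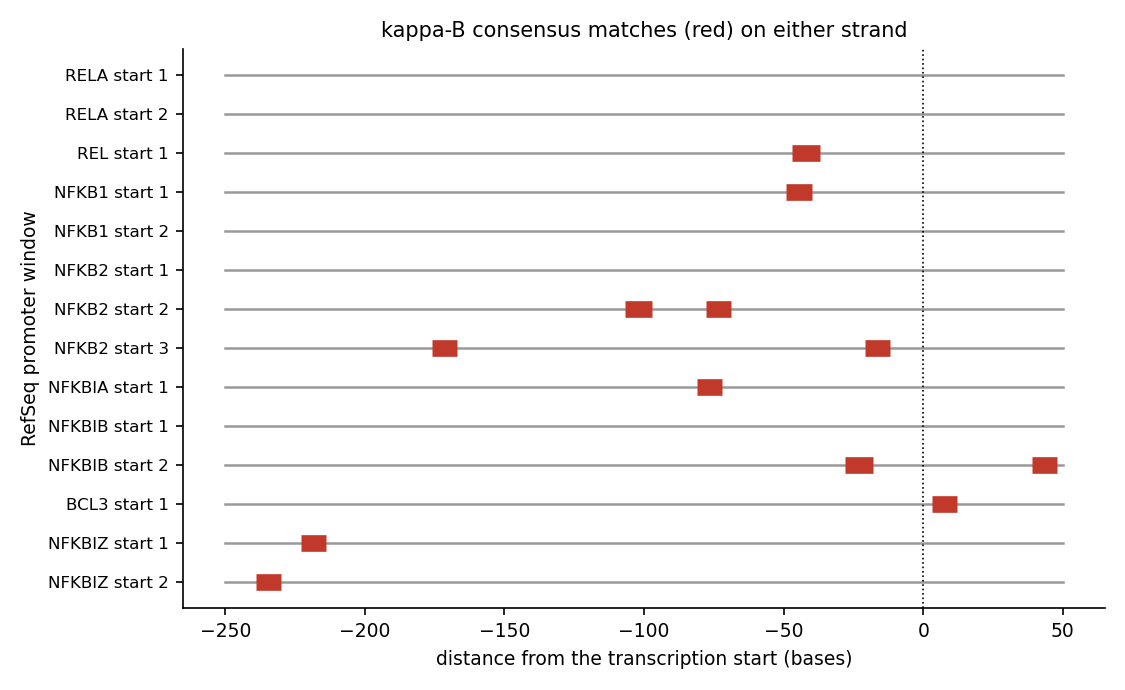
Positions of kappa-B consensus matches on either strand (red blocks) in the 14 RefSeq promoter windows of 8 member genes, by distance from the transcription start in bases; each grey line is 1 window from 250 bases before to 50 from the start. Matches lie in 9 windows, from 81 bases before to 48 from the start in NFKB1, REL, NFKBIA, NFKBIB and BCL3, from 176 to 12 bases before it in NFKB2, and from 239 to 214 bases before it in NFKBIZ.

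The median log2 level of an array was 5.29 to 5.31, and the correlation of 2 arrays across probe sets was 0.996 to 0.997 inside a group and 0.995 to 0.996 across groups. Of 14 retinal pigment epithelium markers with a probe set, KRT8, KRT18, EZR, OTX2 and MITF were at mean log2 levels of 11.42, 12.11, 11.00, 8.34 and 8.11. Of the 8 tested markers 2 fell with satellite alpha, KRT18 by 0.21 and KRT8 by 0.13 (limma adjusted p = 0.000675 and 0.0266), and 6 did not pass. That is 25% with a call, each of them lower. Over all tested genes, 20.8% had a call in either direction and 13.0% had a call and were lower. The mean over the 14 markers was 6.67 to 6.69 in the GFP arrays and 6.60 to 6.64 in the SATalpha arrays, and its part in the results on the family was not tested. Of the 14 markers 6 lay below the level filter of 5.19. These were the visual cycle markers RPE65 (3.41), RLBP1 (4.14) and LRAT (4.24), together with BEST1 (4.62), TYRP1 (3.51) and TTR, which was just under it. TYR (5.26), PMEL (5.74) and SERPINF1 (6.03) lay above it. Of 9 leukocyte markers 6 lay below that filter, PTPRC at 2.37 among them. CD68 (8.22), NKG7 (5.56) and CSF1R (5.43) lay above it, CD68 at a level like those of OTX2 and MITF. These 3 did not pass (unadjusted limma p of 0.146 to 0.259). Of 7 endothelial markers 3 lay below the filter. The 4 tested, TIE1 (6.21), KDR (5.47), VWF (5.35) and PECAM1 (5.34), did not pass.

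The family moved in both directions. With satellite alpha, the cytoplasmic inhibitor NFKBIE fell most, to 0.590 times its GFP level, and the subunits RELB, NFKB1 and NFKB2 fell to 0.637, 0.769 and 0.780 times theirs. The nuclear regulator NFKBIZ rose 1.45-fold. RELA, NFKBIA and NFKBIB did not pass the test, BCL3 missed it narrowly, and REL was too dim to be tested. These are bulk values, in which fewer expressing cells and less RNA per cell cannot be told apart.

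In numbers, 9 of the 10 genes were bright enough to enter the test of 10879 genes (1 probe set per gene, the one with the highest mean). At a limma adjusted p under 0.05, 4 of the 9 fell, 1 rose and 4 did not pass. Over all tested genes the corresponding shares were 13.0% lower and 7.72% higher, 20.8% in either direction. The median log2 difference was -0.27 over the 9 genes and -0.02 over all tested genes. The former is the value of BCL3 alone, which did not pass and whose other probe sets differed in the other direction. The 3 SATalpha values did not overlap with the 3 GFP values in 6 of the 9 genes, which was so for 37.6% of all tested genes. The genes with a call were those with a single probe set on the array: NFKBIE, RELB, NFKB1, NFKB2 and NFKBIZ have 1 each, so no other probe set of the gene was there to compare. In the probe set fit, which used all 49293 probe sets with no level filter, 4 of the 21 member probe sets fell and 1 rose, against 4.19% lower and 4.18% higher of all probe sets (8.36% in either direction). The groups did not overlap in 7 of the 21, against 26.0% of all probe sets. The median over the 21 member probe sets was -0.01, and 11 of the 21 differences were negative.

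**Figure D2:**
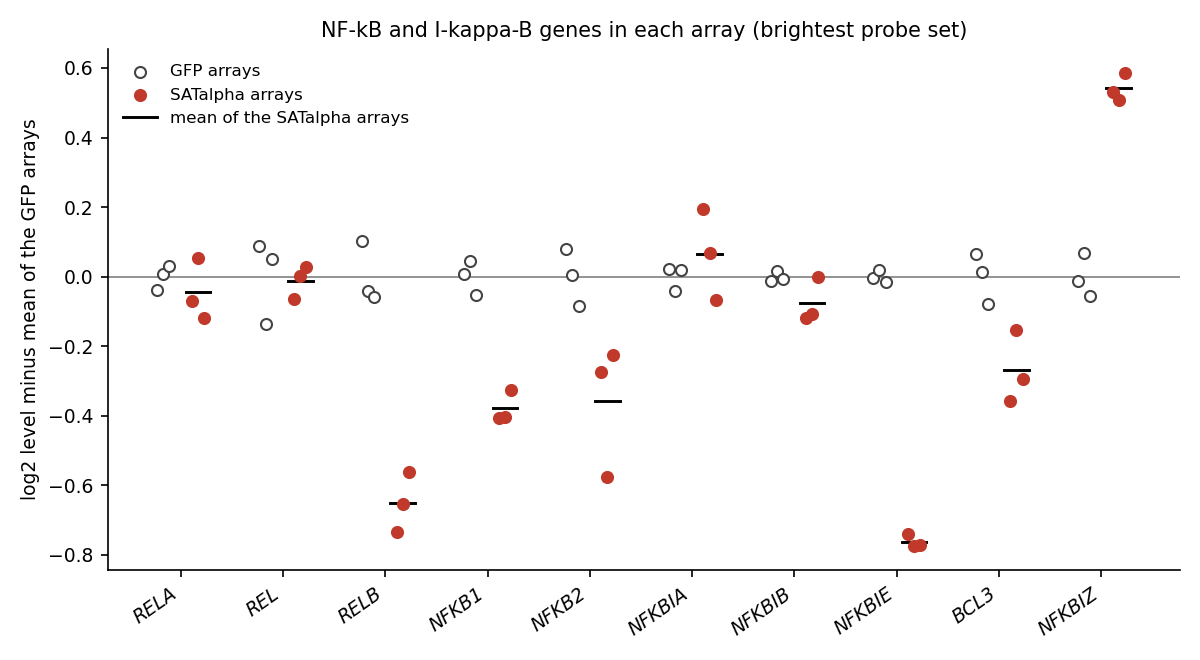
Log2 level of each member gene in each array, as the brightest probe set minus its mean over the 3 GFP arrays, on the y axis, with open points for GFP arrays, red points for SATalpha arrays and a bar at the SATalpha mean. All 3 SATalpha points lie below all GFP points for RELB, NFKB1, NFKB2, NFKBIE and BCL3 and above them for NFKBIZ, while the ranges of the groups overlap for RELA, REL, NFKBIA and NFKBIB.

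Among the subunits that activate transcription, RELB alone had a call. RELB was at log2 levels of 7.87, 7.73 and 7.71 in the 3 GFP arrays and at 7.03, 7.11 and 7.20 in the 3 SATalpha arrays. The groups did not overlap, and the gap between them was wider than the range within either. The mean went from 7.77 ± 0.09 to 7.12 ± 0.09 (SD, n = 3), a log2 difference of -0.65 with a 95% confidence interval of -0.79 to -0.51 (SE 0.07, limma adjusted p = 1.70e-05).

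RELA, the activating subunit of the most common NF-kB dimer, was at 9.04, 9.09 and 9.11 with GFP and at 9.01, 9.13 and 8.96 with satellite alpha in its brightest probe set. The groups overlapped, and SATalpha replicate 2 was the highest of the 6 arrays. Its difference of -0.04 had an interval of -0.15 to 0.06, so a change as large as that of RELB lies outside the interval (limma adjusted p = 0.577). The 2 other RELA probe sets, at lower levels of 5.57 and 5.22, differed by 0.06 and 0.07, and averaged over its probe sets RELA differed by 0.030, so its sign depends on the probe set.

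REL, the third activating subunit and one best known from lymphoid cells, was dim in both probe sets. The brighter was at 3.90, 3.68 and 3.87 with GFP and at 3.75, 3.82 and 3.84 with satellite alpha. These levels lie below the filter of 5.19 and the groups overlap. The differences of the 2 probe sets were -0.01 and -0.11 in the probe set fit, with intervals of -0.25 to 0.22 and -0.39 to 0.17.

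The precursor genes both fell. NFKB1 was at 8.88, 8.91 and 8.82 with GFP and at 8.46, 8.47 and 8.54 with satellite alpha. The lowest GFP array was above the highest SATalpha array. The mean went from 8.87 ± 0.05 to 8.49 ± 0.05 (SD, n = 3), a log2 difference of -0.38 with an interval of -0.48 to -0.27 (limma adjusted p = 0.000119).

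NFKB2, the precursor of the noncanonical route, was dimmer and more variable, at 6.03, 5.95 and 5.86 with GFP and at 5.68, 5.37 and 5.72 with satellite alpha. SATalpha replicate 2 was the lowest of the 6 arrays by a wide margin, although the other SATalpha arrays also lay below the GFP arrays. The difference was -0.36 with an interval of -0.57 to -0.14 (SE 0.10, limma adjusted p = 0.0221). The call was lost without SATalpha replicate 2 (-0.25, limma adjusted p = 0.0791), without GFP replicate 1 (-0.32, adjusted p = 0.105) and without GFP replicate 2 (-0.36, adjusted p = 0.0647), and over all alternatives its adjusted p ran from 0.00701 to 0.157.

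Of the 3 cytoplasmic inhibitors, NFKBIE fell and the other two did not pass, although the difference between inhibitors was not tested. NFKBIE, I-kappa-B epsilon, had the smallest p of the family. Its levels were 9.35, 9.38 and 9.34 with GFP and 8.62, 8.58 and 8.58 with satellite alpha. Arrays within a group were almost level, and the groups were far apart. The mean went from 9.36 ± 0.02 to 8.59 ± 0.02 (SD, n = 3), a log2 difference of -0.76 with an interval of -0.85 to -0.67 (SE 0.04, limma adjusted p = 5.87e-08).

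NFKBIA, I-kappa-B alpha, the inhibitor that is rapidly remade after NF-kB activation, was measured by 3 probe sets. The brightest was at 8.53, 8.46 and 8.52 with GFP and at 8.70, 8.57 and 8.44 with satellite alpha. SATalpha replicate 1 was the highest array and SATalpha replicate 3 the lowest, so the groups overlapped. The difference of 0.06 had an interval of -0.07 to 0.20 (limma adjusted p = 0.499), and the 2 other probe sets differed by 0.02 and 0.05. An interval that ends at -0.07 does not reach a decrease of the size seen for NFKBIE.

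NFKBIB, I-kappa-B beta, which is degraded and remade more slowly, was at 6.17, 6.20 and 6.18 with GFP and at 6.06, 6.07 and 6.18 with satellite alpha in the brightest of its 4 probe sets. SATalpha replicate 3 lay among the GFP arrays. The difference was -0.08 with an interval of -0.23 to 0.08 (limma adjusted p = 0.517), and the 3 other probe sets differed by -0.11 to 0.06.

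Of the atypical nuclear members, NFKBIZ rose and BCL3 did not pass. NFKBIZ, I-kappa-B zeta, a cofactor required for a set of secondary NF-kB targets that includes IL6, was at 7.25, 7.33 and 7.21 with GFP and at 7.79, 7.77 and 7.85 with satellite alpha. All SATalpha arrays were above all GFP arrays. The mean went from 7.26 ± 0.06 to 7.80 ± 0.04 (SD, n = 3), a log2 difference of 0.54 with an interval of 0.42 to 0.67 (SE 0.06, limma adjusted p = 2.83e-05).

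BCL3, which pairs with the processed NFKB1 and NFKB2 subunits in the nucleus, was at 5.62, 5.57 and 5.48 with GFP and at 5.20, 5.40 and 5.26 with satellite alpha in its brightest probe set. The groups did not overlap, but the difference of -0.27 did not pass (interval -0.47 to -0.07, SE 0.09, limma adjusted p = 0.0532). It passed without SATalpha replicate 2 (-0.33, limma adjusted p = 0.0374), with no mean-variance trend (-0.27, adjusted p = 0.0293) and with array weights (-0.32, adjusted p = 0.00928), and its adjusted p ran from 0.00928 to 0.182 over all alternatives. Its 3 other probe sets, all below the level filter at 4.52, 3.46 and 3.26, differed in the other direction, by 0.05, 0.32 and 0.22, and did not pass. The direction of BCL3 is therefore uncertain.

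**Figure D3:**
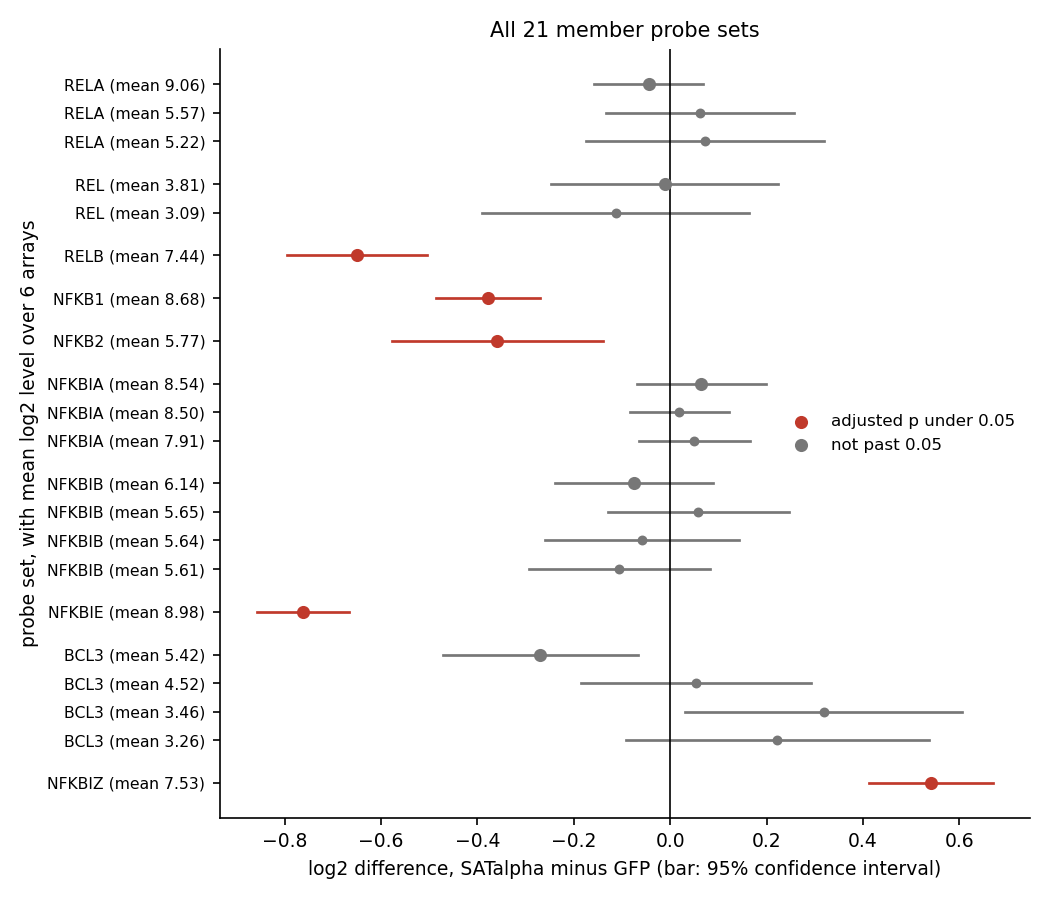
Log2 difference (SATalpha minus GFP, x axis) of all 21 member probe sets with 95% confidence intervals from the probe set fit, 1 row per probe set with its mean log2 level over the 6 arrays; larger points mark the brightest probe set of a gene and red those with an adjusted p under 0.05. The 5 red probe sets are the only ones of NFKBIE, RELB, NFKB1, NFKB2 and NFKBIZ, while the 4 probe sets of BCL3 spread from -0.27 to 0.32.

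Members with a kappa-B match did not share a direction. Matches stood in the windows of genes that fell (NFKB1, NFKB2), that rose (NFKBIZ) and that did not pass or were not tested (NFKBIA, NFKBIB, BCL3, REL). NFKBIE and RELB, which fell most, had no window and are missing here. RELA alone had a window without a match, so the family cannot show whether match and direction go together. Over the 9049 tested genes with a promoter window, 1582 held a match, of which 7.84% were higher and 13.9% lower with satellite alpha. Of the 7467 genes without a match, 7.77% were higher and 13.4% lower. The shares of the 2 sets thus lay within 1 percentage point of each other in both directions, as a description with no test.

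**Figure D4:**
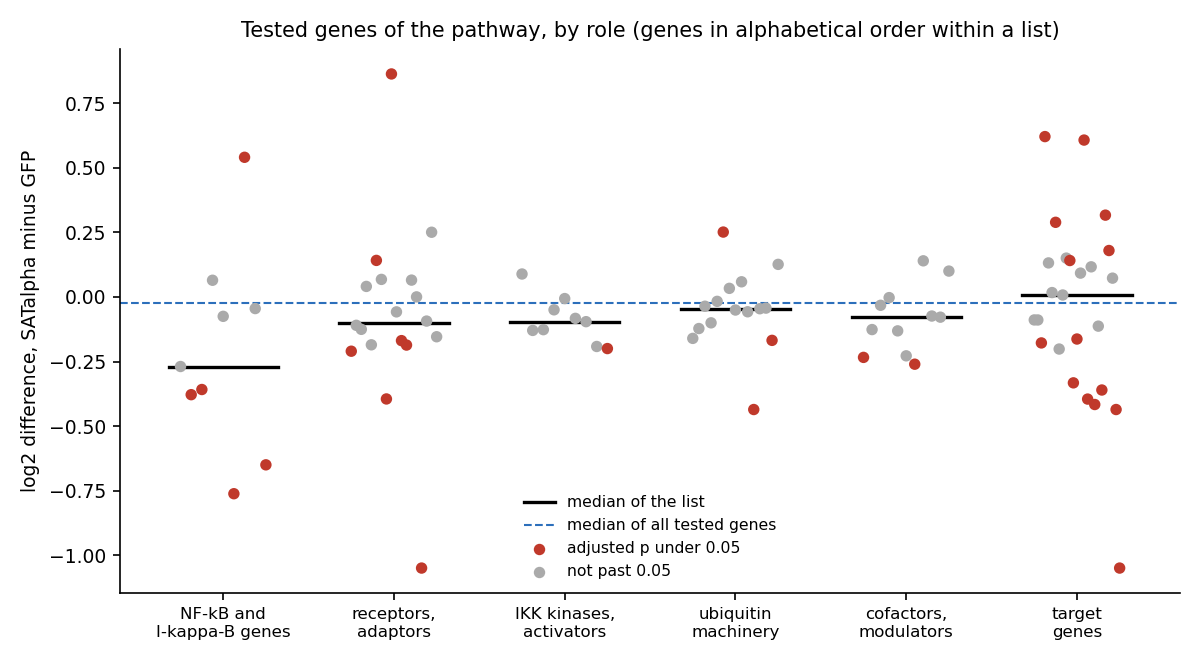
Log2 difference (SATalpha minus GFP, y axis) of each tested gene of the family and of 5 lists of pathway genes, with red points for an adjusted p under 0.05, grey points for the rest, black bars at list medians and a dashed line at the median of all tested genes. Calls lie on both sides of 0 among the members, the receptors and adaptors, the ubiquitin machinery and the target genes.

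Upstream of the family, 18 of 25 listed receptors and adaptors were tested, of which 2 rose, 5 fell and 11 did not pass (median -0.10), or 38.9% with a call against 20.8% of all tested genes. With 1 array left out, 5 to 7 of the list passed. The calls of LTBR (0.14, limma adjusted p = 0.0429) and TNFRSF1A (-0.19, limma adjusted p = 0.0371) each held in only 1 of these 6 fits. TRAF1, an adaptor of TNF family receptors, was at 6.33, 6.28 and 6.25 with GFP and at 5.24, 5.33 and 5.14 with satellite alpha. It fell by 1.05 on the log2 scale (limma adjusted p = 1.48e-06), and 2 further probe sets were at -0.46 and -0.36, of which 1 passed. TLR3, an endosomal receptor for double-stranded RNA, was at 6.26, 6.09 and 6.17 with GFP and at 7.02, 6.97 and 7.12 with satellite alpha, and it rose by 0.86 (limma adjusted p = 3.23e-06). TICAM1, the adaptor through which TLR3 signals, went the other way, from 7.38, 7.41 and 7.30 to 6.93, 6.94 and 7.04, a difference of -0.40 (limma adjusted p = 0.000672). BIRC2, a ubiquitin ligase bound to TNF receptor complexes, differed by -0.21 (limma adjusted p = 0.00166), and its 4 other probe sets, at -0.26 to -0.20, all passed in the same direction.

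The IKK kinases and their activators showed 1 call. Of 9 tested genes 1 fell and 8 did not pass (median -0.10), or 11.1% with a call against 20.8% of all tested genes. That gene was TBK1, an IKK-related kinase better known for interferon induction, with a difference of -0.20 (limma adjusted p = 0.0463). Leaving out GFP replicate 1 (-0.17) or 2 (-0.17), or SATalpha replicate 1 (-0.24) or 2 (-0.13), ended that call. In the probe set fit neither TBK1 probe set passed. The brighter was at -0.20 (limma adjusted p = 0.0851) and the other at -0.23 (limma adjusted p = 0.0739). The catalytic subunits IKBKB and CHUK, chosen after their values were seen, differed by -0.13 and 0.09 (limma adjusted p = 0.125 and 0.346).

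The ubiquitin machinery that passes the signal on and destroys the inhibitors had 1 higher, 2 lower and 12 other genes of 15 tested (median -0.05), or 20% with a call against 20.8% of all tested genes. TNFAIP3, the deubiquitinating feedback inhibitor, was at 9.97, 9.93 and 9.94 with GFP and at 9.54, 9.60 and 9.39 with satellite alpha, a difference of -0.44 (limma adjusted p = 5.94e-05), and its other probe set also fell, by 0.20. RBCK1, of the linear ubiquitin ligase, had a difference of 0.25 (limma adjusted p = 0.0178), with 0.16 to 0.19 in 3 other probe sets that did not pass. UBE2N, an enzyme that builds signalling ubiquitin chains, had one of -0.17 (limma adjusted p = 0.0428), although the 2 others for this gene were at -0.01 and 0.0048. Without GFP replicate 1, GFP replicate 2 or SATalpha replicate 1 only TNFAIP3 kept its call: RBCK1 then differed by 0.26, 0.21 and 0.24 and UBE2N by -0.17, -0.18 and -0.16. UBE2N also lost its call without GFP replicate 3 (-0.16) or SATalpha replicate 3 (-0.11).

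Among nuclear cofactors and other modulators, 2 of 11 tested genes fell and 9 did not pass (median -0.08), or 18.2% with a call against 20.8% of all tested genes. COMMD1, which promotes the ubiquitination of RELA, differed by -0.23 (limma adjusted p = 0.00393). NKIRAS1, a Ras-like protein that binds I-kappa-B, differed by -0.26 (limma adjusted p = 0.0328). That of NKIRAS1 ended when any GFP array (-0.28, -0.27 and -0.23 without replicates 1, 2 and 3) or SATalpha replicate 1 (-0.21) or 3 (-0.22) was dropped, and 1 or 2 genes of the list then passed.

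Known targets of NF-kB outside the family had calls in both directions. Of 34 listed genes 25 were tested, and 6 rose while 8 fell (11 did not pass), the median being 0.0076. Of the 25 tested, 56.0% had a call, against 20.8% of all tested genes, in a list chosen with earlier results known. Without GFP replicate 1 the counts were 3 and 6. IER3, an early response gene that affects cell survival, was at 11.40, 11.40 and 11.36 with GFP and at 12.00, 11.99 and 11.99 with satellite alpha, and rose by 0.61 (limma adjusted p = 3.16e-08). TRAF1 and TNFAIP3, given above, are also targets and fell. PLAU, the urokinase plasminogen activator, went from 9.71, 9.73 and 9.77 to 9.33, 9.38 and 9.42, a difference of -0.36 (limma adjusted p = 5.94e-05), while 2 further probe sets were at -0.34 and 0.13 and 1 of them passed in the same direction. Of the 20 tested targets with a promoter window 12 held a kappa-B match, against 1582 of all 9049 tested genes with a window. Of these 12 targets 4 rose and 3 fell. Among all tested genes with a match 7.84% were higher and 13.9% lower.

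The genes whose pattern over the 6 arrays was most like that of NFKBIE were found by the root mean square distance between log2 values, each gene taken relative to its GFP mean. The closest 5 of the tested genes were NEK2 (0.027), ADPRM (0.039), UBE2S (0.045), AURKA (0.052) and GORAB (0.054), with the distance in log2 units in brackets. NEK2 and AURKA are mitotic kinases, UBE2S is a ubiquitin-conjugating enzyme of the anaphase-promoting complex, ADPRM hydrolyses ADP-ribose and GORAB a Golgi protein. Their log2 differences were -0.73, -0.72, -0.77, -0.78 and -0.75. The measure was over 6 arrays in 2 groups, so it picks genes that fell by a like amount. Of the 6 other NEK2 probe sets 5 passed in the same direction, as did 2 of the 3 other GORAB probe sets. The remaining probe set of NEK2 (0.0055) and of GORAB (0.31) did not fall. Both were below the level filter of 5.19, with GFP means of 2.70 for NEK2 and 3.12 for GORAB and SATalpha means of 2.70 and 3.42.

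**Figure D5:**
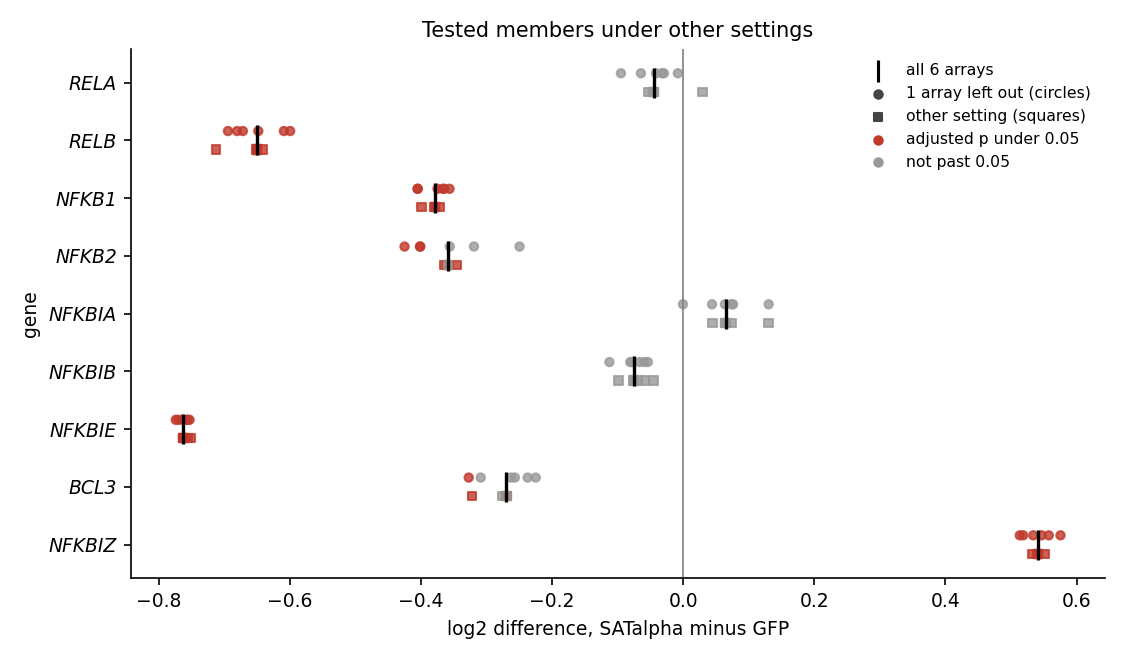
Log2 difference (SATalpha minus GFP, x axis) of the 9 tested members with all 6 arrays (black ticks), with 1 array left out (circles) and under other settings (squares), in red where the adjusted p was under 0.05. NFKBIE, RELB, NFKB1 and NFKBIZ are red throughout, NFKB2 and BCL3 are red in some settings, and RELA, NFKBIA and NFKBIB in none.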

How the data were processed

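The deposited table gives log2 expression values, 1 column per array, which the authors had normalized between arrays. MAS5 and RMA are both listed in the submitters' processing notes, and which of them made these log2 values is unknown, with versions not given in the sources used here. Per the labels' protocols, targets were made for Affymetrix 3′ arrays. No scan date or batch was given, so batch and group cannot be told apart. The number of arrays limits the precision (median SE of 0.06 over tested genes).

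Of 49372 probe sets 79 were controls, 44988 had 1 gene symbol in the platform annotation, 1832 had several and 2473 were not listed. Each of 18132 genes was represented by its brightest probe set, and the lowest 40% by mean level were left out, leaving 10879. Groups were compared with limma 3.58.1 in R 4.3.3 (lmFit, then eBayes with trend), p-values were adjusted by Benjamini-Hochberg over all rows, and the threshold was 0.05; SE and intervals are moderated. A second fit used every non-control probe set. The script was tested on simulated data. A planned search of protein sequences was not run.

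The members, the pathway lists and the rule for named genes were chosen with earlier results of these data known. The rule took all members, up to 4 called genes of each list with the smallest p whose groups did not overlap, and the 5 genes nearest to the member with the smallest p. Alternatives were other level filters, normalizations, probe set choices, variance models, an unmoderated test, the replicate number as a block, and each array left out.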

Additional observations from a re-analysis of the deposited data

How the results depend on the processing

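NFKBIE, RELB, NFKB1 and NFKBIZ kept direction and call in every alternative of the gene fit that tested them; NFKB1 was not tested without the _s_at, _x_at and _a_at probe sets, which can match several transcripts. NFKB2 and BCL3 changed call as given above. Members past the threshold numbered 5, with 4 to 5 when 1 array was left out, 3 of 4 tested without the multi-transcript probe sets, and 3 to 6 over all 16 alternatives. Member probe sets past the threshold numbered 5, or 2 by the unmoderated test (1 lower, 1 higher). Pathway genes past the threshold numbered 25 of 76 tested, 14 to 22 with 1 array left out, 8 of 28 without the multi-transcript probe sets and 10 by the unmoderated test. All genes past the threshold numbered 2259, with 1216 to 2520 when 1 array was left out, 481 of 5012 tested without the multi-transcript probe sets and 717 by the unmoderated test. Differences near 0 turned sign for RELA, averaged over its probe sets (0.030), and for NFKBIA without SATalpha replicate 1 (-0.00020, in a range of -0.00020 to 0.13 with 1 array left out). Same-numbered arrays did not deviate together (correlations of -0.0035, -0.24 and -0.29 across genes), and 0 of 6 arrays correlated best with its own number. The replicate block left 1300 genes, 4 members, 4 member probe sets and 16 pathway genes past the threshold, with NFKB2 at an adjusted p of 0.0544. Low signal limits REL and the dim BCL3 probe sets.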
